A study of Homo sapiens with 8 samples.

Results

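The DEAD box and DEAH box proteins are the largest families of RNA helicases in human cells, and their transcripts were measured here in HCT116, a human colorectal cancer line, after treatment with the traditional Chinese medicine Pien Tze Huang (PZH) or with the solvent DMSO. Members were taken by symbol: every row of the deposited count table named DDX or DHX followed by a number, with an optional A or B, which left 49 genes of 35394 (34 DDX and 15 DHX genes). Pseudogenes, Y-linked DDX and the cytosolic innate RNA sensors were set aside by the rule whatever their values. DDX3X, DDX60L and DEAD or DEAH box proteins under other names, such as EIF4A2, lie outside the naming pattern and are given for comparison. The PZH group held 4 libraries of cells treated for 24 h (no dose is stated), and the DMSO group held 4 libraries that received the solvent as the control. All libraries came from this single line, which the labels describe as epithelial cells of the colon with a ras mutation. The labels do not say whether replicates were separate cultures, so p-values measure the spread between these samples, which may be technical.

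Helicases of these families use ATP to pull apart short RNA duplexes or to strip proteins from RNA. They are named after a short amino acid motif that binds ATP, read as Asp-Glu-Ala-Asp in DEAD box and Asp-Glu-Ala-His in DEAH box proteins. DEAD box proteins open short helices locally, whereas DEAH box proteins move along a strand and are often switched on by partner proteins. Together they take part in assembly of ribosomes in the nucleolus, rearrangements of the spliceosome and export of mRNA from the nucleus. They also act in translation and decay of mRNA in the cytoplasm.

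PZH libraries held 18144117 to 18868057 counts and DMSO libraries 19288836 to 19917571. CPM values (counts scaled to library size) carry TMM factors, from edgeR's trimmed mean of M-values, which sets the bulk of genes level between libraries. The epithelial genes EPCAM, KRT8, KRT18 and CDH1 were present in every library, at a summed 1941 to 2261 CPM in PZH and 2811 to 2878 CPM in DMSO. They did not share a direction. KRT8, the most counted of them, fell 1.91-fold (log2 fold change -0.93 ± 0.058, adjusted p = 1.02e-12), CDH1 rose 3.12-fold (log2 fold change 1.64 ± 0.047, adjusted p = 6.95e-19), EPCAM was called higher with TMM factors (log2 fold change 0.11 ± 0.046, adjusted p = 0.0352), and KRT18 was not called (log2 fold change -0.07 ± 0.053, adjusted p = 0.221). Summed markers of endothelial, immune and erythroid cells stayed at or below 1.45 CPM in PZH and 1.32 CPM in DMSO libraries for each list. The 5 fibroblast markers summed to 18.7 to 22.2 CPM in PZH and 10.3 to 12.8 CPM in DMSO, nearly all of it COL1A1, at 20.7 ± 1.65 CPM in PZH and 11.7 ± 1.13 CPM in DMSO; COL1A2 had no count in any library, and COL3A1, LUM and DCN averaged at most 0.179 CPM in PZH and 0.0829 CPM in DMSO. The part of these marker levels in the helicase values was not tested. In bulk RNA, fewer cells of a kind and less RNA per cell cannot be told apart.

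The helicase family was divided in PZH-treated cells, with more members lower than higher. DHX9 and DDX46, a transcription cofactor and a spliceosome helicase, fell 5.63-fold and 3.91-fold. The nucleolar helicase DDX50 and the splicing and export factor DDX39B rose 2.31-fold and 2.13-fold. Of 46 members with enough counts to test, 15 were higher and 24 lower in PZH, and 7 were not called (quasi-likelihood test of edgeR, p-values adjusted over 15006 genes by Benjamini-Hochberg, threshold 0.05). Over all genes tested, 80.3% were called, 39.3% higher and 40.9% lower, so the helicases (32.6% higher and 52.2% lower) were lower in a larger share than the table as a whole. The difference between those shares was not tested. The median log2 fold change (PZH over DMSO) of the tested members was -0.12, beside -0.02 over all genes.

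Changes of at least 2-fold were called upward in 2 of 46 members, DDX50 and DDX39B, and downward in 7 of 46. Over all genes tested the shares were 15.8% upward and 18.9% downward, and the differences were not tested. The 4 PZH values lay wholly above the 4 DMSO values for 15 members and wholly below for 23, which makes 38 of 46 beside 75.0% of all genes whose groups did not overlap. Both subfamilies were divided. Among DDX genes 11 of 31 tested were higher and 16 lower, and among DHX genes 4 of 15 were higher and 8 lower. Over all genes tested 39.3% were higher and 40.9% lower. As a share of raw library counts, before any scaling, family members took 0.498 ± 0.0136% in PZH and 0.670 ± 0.00443% in DMSO (mean ± SD, n = 4 each), and without DHX9 0.489 ± 0.0129% in PZH and 0.607 ± 0.00421% in DMSO. On the TMM scale the family summed to 5450.2 ± 121 CPM in PZH and 6125 ± 47.2 CPM in DMSO, and without DHX9 to 5348 ± 120.1 CPM in PZH and 5548 ± 41.5 CPM in DMSO. The difference outside DHX9 therefore depends on the scaling.

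**Figure D1:**
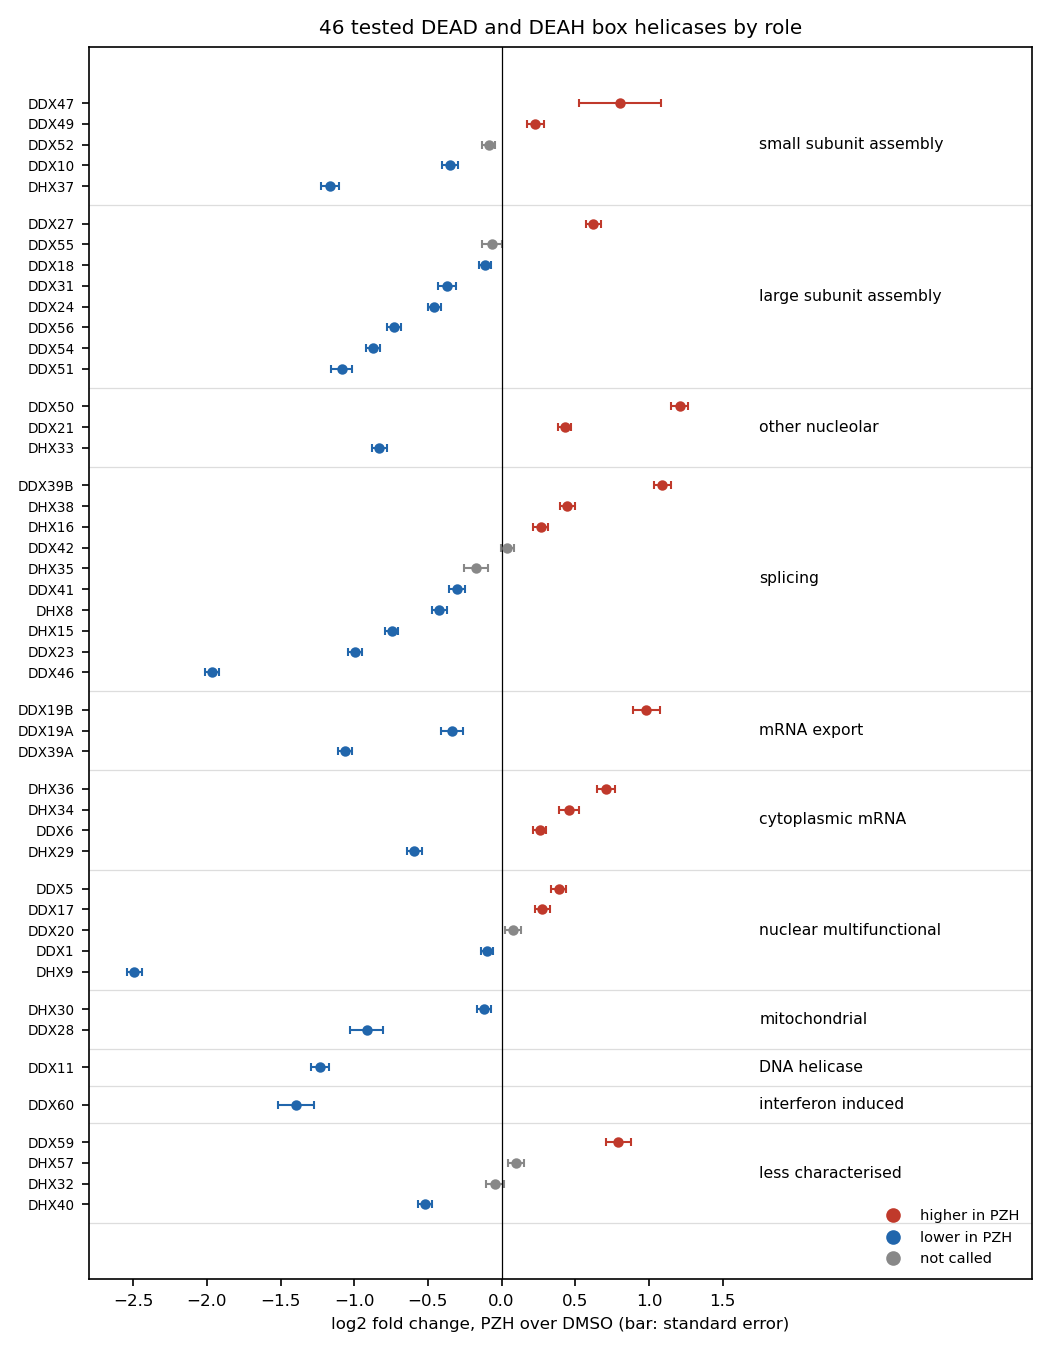
Log2 fold change (PZH over DMSO) of each of the 46 tested helicases, with its standard error as a bar, grouped by role; red points were called higher in PZH, blue points lower, grey points were not called. DHX9, at -2.49, and DDX46, at -1.97, lie farthest to the left, and DDX50, at 1.21, lies farthest to the right.

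Directions of the small changes depend on how libraries were scaled. With no TMM factors, all genes had a median of -0.28 and the helicases one of -0.38, and 10 members were called higher and 31 lower. Over all 15006 genes tested, 4473 were then called higher and 7670 lower. Under that setting DDX17, DDX6 and DHX16 were no longer called higher, and DDX47, called higher with TMM factors, and DDX49 were not called either, DDX49 standing at -0.031. No member called higher with TMM factors was called lower without them, and all 24 members called lower stayed lower.

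**Figure D2:**
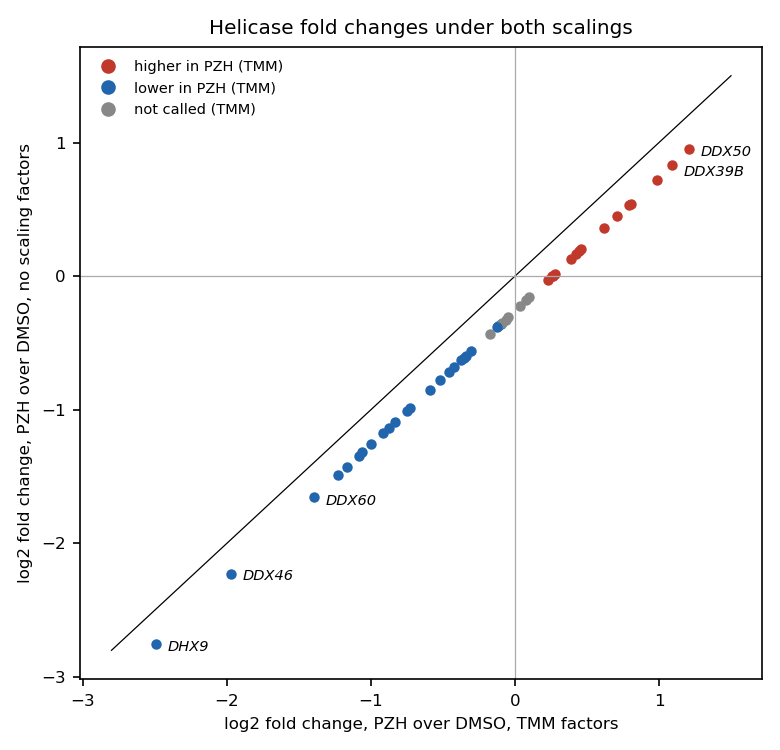
Log2 fold change (PZH over DMSO) of each tested helicase with TMM factors (horizontal axis) and without scaling factors (vertical axis); colours give the call with TMM factors and the black line marks equal values. All points lie below the line, and the grey points near 0 on the horizontal axis fall below 0 on the vertical axis.

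DHX9, also called RNA helicase A, unwinds RNA and RNA-DNA hybrids and works as a cofactor of transcription. It had 111, 96.7, 99.8 and 103 CPM in PZH replicates 1 to 4, against 564, 575, 589 and 582 CPM in DMSO replicates 1 to 4. The groups lay far apart, and no other tested member had a larger fold change in either direction (log2 fold change -2.49 ± 0.051, adjusted p = 2.21e-21). DHX9 took 1.88 ± 0.111% of the family's counts in PZH and 9.43 ± 0.143% in DMSO.

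DDX46, the human counterpart of yeast Prp5, lets the branch point of an intron be recognised. It had 65.1, 64.2, 62.3 and 68.2 CPM in PZH replicates 1 to 4, against 252, 243, 263 and 257 CPM in DMSO replicates 1 to 4. Each PZH value was below every DMSO value by a wide margin (log2 fold change -1.97 ± 0.047, adjusted p = 3.25e-20). DDX60, an interferon-induced member, had 4.01, 4.25, 4.77 and 4.90 CPM in PZH replicates 1 to 4, against 11.7, 11.5, 10.8 and 13.2 CPM in DMSO replicates 1 to 4. It fell 2.63-fold with no overlap (log2 fold change -1.40 ± 0.12, adjusted p = 3.46e-10), and DDX60L, its close relative outside the naming pattern, stood at 28.7 to 34.6 CPM in PZH and 66.2 to 69.2 CPM in DMSO (log2 fold change -1.13 ± 0.059, adjusted p = 4.07e-14).

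DDX11 is a DNA helicase of sister chromatid cohesion rather than an RNA helicase by its known role. It had 24.5, 26.9, 23.1 and 24.1 CPM in PZH replicates 1 to 4, against 57.7, 57.3, 56.4 and 60.1 CPM in DMSO replicates 1 to 4. It fell 2.35-fold (log2 fold change -1.23 ± 0.060, adjusted p = 1.02e-14). Of the 50-base windows of the DDX11 transcript, 42.4% are found in at least 1 other gene in GENCODE 29, 34.7% in AC009533.1 and 32.3% in its pseudogene DDX12P. DDX12P fell too, at 4.72 ± 0.553 CPM in PZH and 9.94 ± 1.56 CPM in DMSO (mean ± SD, n = 4 each), and how reads matching several of these genes were counted is not known, so the DDX11 values are uncertain.

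Rises were smaller than the steepest falls. DDX50, a nucleolar paralogue of DDX21, had 77.3, 73.3, 67.6 and 80.6 CPM in PZH replicates 1 to 4, against 30.6, 32.7, 32.8 and 33.2 CPM in DMSO replicates 1 to 4. All PZH values exceeded all DMSO values (log2 fold change 1.21 ± 0.059, adjusted p = 1.20e-14). DDX39B (also called UAP56), which loads onto mRNA during splicing and brings in the export machinery, had 99.9, 109, 101 and 121 CPM in PZH replicates 1 to 4, against 51.1, 51.7, 50.5 and 49.4 CPM in DMSO replicates 1 to 4. It rose 2.13-fold with no overlap (log2 fold change 1.09 ± 0.057, adjusted p = 4.39e-14).

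Several members share exons with other genes. Per GENCODE 29, 96.4% of the exon bases of DDX39B are shared on the same strand with the readthrough gene ATP6V1G2-DDX39B, which had no count in any library. DDX47 shares 99.7% with APOLD1, and DDX19A and DDX19B share 62.6% and 18.1% with the readthrough AC012184.2. No source used here says how such shared reads were counted, and the values of these 4 members are uncertain for that reason. Without them, 12 members were higher and 23 lower, beside 39.3% and 40.9% of all genes tested.

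**Figure D3:**
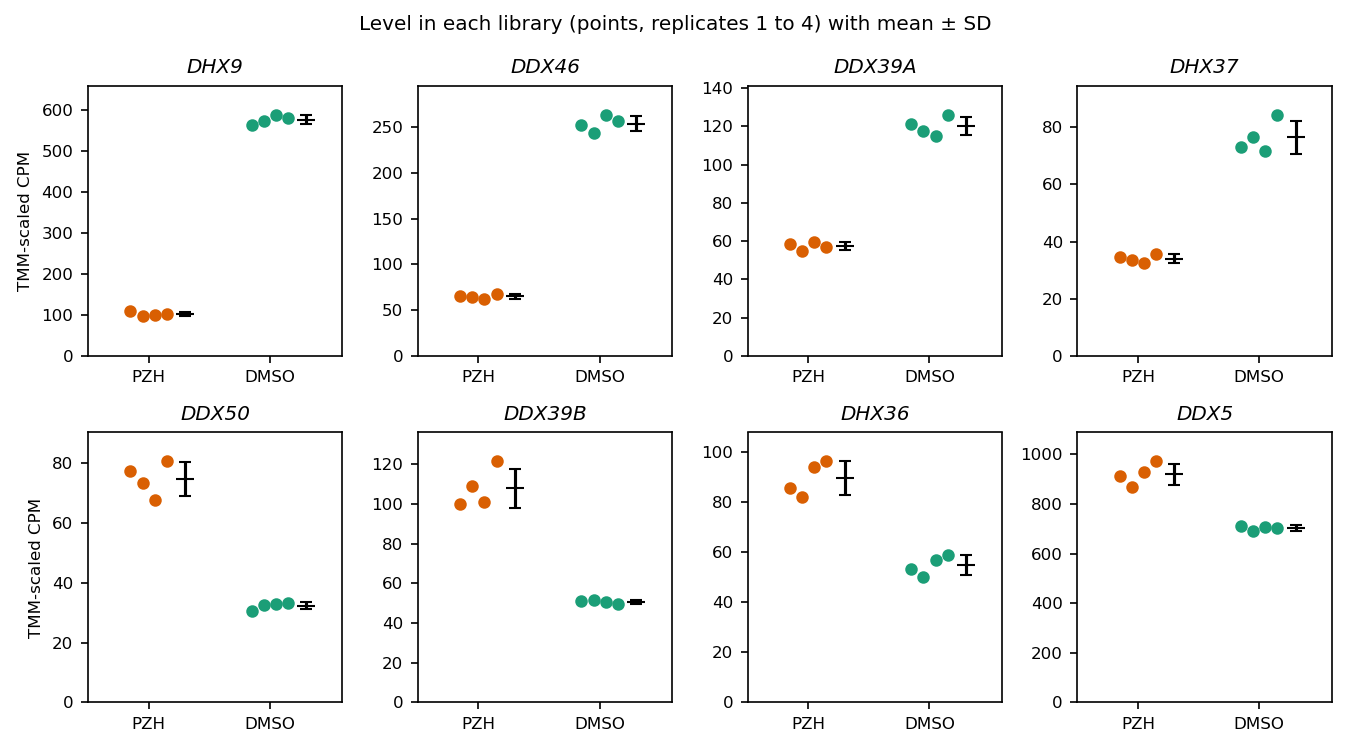
TMM-scaled CPM of 8 helicases in each library, with PZH left of DMSO, points for replicates 1 to 4 and the mean ± SD beside them; each axis starts at 0. The upper row shows members that fell, among them DHX9 at 103 CPM in PZH and 578 CPM in DMSO on average, and the lower row members that rose; in no panel do the groups overlap.

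DDX50 and DDX21 lie on the same strand of chromosome 10, with starts 54855 bases apart, and the 120 bases before their starts are shown with those of DHX9 and DDX46, the members with the steepest falls, from RefSeq (GRCh38.p14). Capitals mark matches to CCAAT (the CCAAT box) or CCGGAA (a core bound by ETS factors) on either strand. Where several starts are listed, the sequence is that of the first.
DHX9 (chr1:182839227-182839346, plus strand): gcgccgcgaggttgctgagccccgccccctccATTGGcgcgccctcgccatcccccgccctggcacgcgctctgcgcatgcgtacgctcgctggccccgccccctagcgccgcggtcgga
DDX46 (chr5:134758659-134758778, plus strand): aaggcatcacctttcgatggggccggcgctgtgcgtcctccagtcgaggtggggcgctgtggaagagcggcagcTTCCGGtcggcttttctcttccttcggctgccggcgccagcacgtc
DDX50 (chr10:68901195-68901314, plus strand): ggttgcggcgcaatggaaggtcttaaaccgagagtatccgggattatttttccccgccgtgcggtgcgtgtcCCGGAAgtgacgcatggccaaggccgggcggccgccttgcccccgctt
DDX21 (chr10:68956050-68956169, plus strand): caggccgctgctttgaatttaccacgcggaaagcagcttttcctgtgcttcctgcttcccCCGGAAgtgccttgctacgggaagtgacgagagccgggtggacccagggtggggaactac

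DHX9 has a CCAAT box match on the minus strand and the other windows have a CCGGAA match. Promoters of 42 of the 46 tested members were matched by symbol. Over the 250 bases before the start, both strands searched, CCGGAA was found in 19 of 42 helicases (45.2%), beside 24.8% of all tested genes with a promoter in the table. It was present in 7 of 14 members called higher and 9 of 22 called lower. CCAAT was found in 18 of 42, or 42.9%, beside 35.1% of all genes. The E-box CACGTG was found in 7 of 42, or 16.7%, beside 8.94%. The antioxidant response core TGACNNNGC was found in 5 of 42 beside 12.2% of all genes, and the C/EBP-ATF element TGATGNAA in none of 42 beside 1.36%. These are matches of letters, not sites shown to be bound.

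Of 8 tested helicases that build the large ribosomal subunit, 6 fell, DDX27 rose and DDX55 was not called. Over all genes tested 40.9% were called lower, and the difference between the shares was not tested. The group had a median log2 fold change of -0.41, beside -0.02 over all genes. DDX54 had 62.7, 70.6, 64.9 and 67.9 CPM in PZH replicates 1 to 4, against 120.1, 123, 121 and 124 CPM in DMSO replicates 1 to 4. DDX51 had 18.1, 19.9995, 19.6 and 18.1 CPM in PZH replicates 1 to 4, against 44.1, 37.5, 41.1 and 38.1 CPM in DMSO replicates 1 to 4. Both fell without overlap, 1.83-fold and 2.12-fold (DDX54: log2 fold change -0.87 ± 0.047, adjusted p = 7.03e-14; DDX51: log2 fold change -1.08 ± 0.071, adjusted p = 2.37e-12). DDX56, DDX24, DDX31 and DDX18 fell 1.66-fold, 1.37-fold, 1.29-fold and 1.08-fold, and the last of these calls (adjusted p = 0.0178) was lost without PZH replicate 1 (adjusted p = 0.0533) and with RLE factors (adjusted p = 0.0691).

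DDX27, which acts in the processing of ribosomal RNA for the large subunit, went against its group and had 73.1, 77.2, 77.0 and 76.3 CPM in PZH replicates 1 to 4, against 49.6, 51.9, 45.9 and 49.8 CPM in DMSO replicates 1 to 4. It rose 1.54-fold (log2 fold change 0.62 ± 0.051, adjusted p = 1.51e-10). DDX55 had 32.8, 37.2, 33.0 and 33.8 CPM in PZH replicates 1 to 4, against 34.5, 35.3, 33.9 and 39.4 CPM in DMSO replicates 1 to 4, and its groups overlapped (log2 fold change -0.06 ± 0.065, adjusted p = 0.365). It was called lower when libraries were left unscaled, where its log2 fold change was -0.32 (adjusted p = 1.20e-04).

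Of 5 helicases of the small subunit, 2 were higher, 2 lower and DDX52 was not called. Over all genes tested 39.3% were called higher and 40.9% lower. In unscaled libraries no small subunit helicase was called higher, beside 4473 of the 15006 genes tested. DHX37, which frees the U3 snoRNA from the early small subunit, had 34.4, 33.6, 32.5 and 35.8 CPM in PZH replicates 1 to 4, against 73.1, 76.7, 71.6 and 84.3 CPM in DMSO replicates 1 to 4. It fell 2.24-fold (log2 fold change -1.17 ± 0.060, adjusted p = 2.49e-14). Its activating partner UTP14A fell 1.61-fold (log2 fold change -0.68 ± 0.064, adjusted p = 1.47e-09). The 40 listed partners of helicases did not share a direction, with 14 called higher and 20 lower, beside 39.3% and 40.9% of all genes tested. DDX10, counterpart of yeast Dbp4, had 59.2, 64.4, 55.4 and 64.6 CPM in PZH replicates 1 to 4, against 78.4, 74.4, 79.0 and 79.1 CPM in DMSO replicates 1 to 4. It was lower in PZH, without overlap (log2 fold change -0.35 ± 0.054, adjusted p = 3.19e-06).

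DDX49, counterpart of yeast Dbp8, had 45.1, 45.8, 43.9 and 40.8 CPM in PZH replicates 1 to 4, against 38.2, 38.7, 37.0 and 35.9 CPM in DMSO replicates 1 to 4. It was called higher by a small step (log2 fold change 0.23 ± 0.058, adjusted p = 0.00104) that turned to -0.031 without scaling factors. DDX47, counterpart of yeast Rrp3, had only 1.70, 2.42, 1.33 and 2.66 CPM in PZH replicates 1 to 4, against 1.46, 1.32, 1.02 and 0.811 CPM in DMSO replicates 1 to 4, and the groups overlapped (log2 fold change 0.80 ± 0.28, adjusted p = 0.012). The call was lost without PZH replicate 4 (adjusted p = 0.0533) and without scaling factors (adjusted p = 0.0795), and nearly all of the gene's exon bases are shared with APOLD1, which fell 5.55-fold (log2 fold change -2.47 ± 0.17, adjusted p = 8.28e-12). DDX52, counterpart of yeast Rok1, had 71.5, 69.9, 70.2 and 70.2 CPM in PZH replicates 1 to 4, against 71.3, 77.0, 74.2 and 76.9 CPM in DMSO replicates 1 to 4, overlapped and was not called (log2 fold change -0.09 ± 0.047, adjusted p = 0.0885). It was called lower without DMSO replicate 1 (adjusted p = 0.0462), with upper quartile factors (0.00298), with the GC trend removed (5.30e-04) and without scaling factors (1.21e-06).

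Other nucleolar helicases parted: DDX50 and DDX21 rose and DHX33 fell. DDX21, which links transcription of ribosomal RNA genes to its processing, had 536, 570.4, 528 and 574 CPM in PZH replicates 1 to 4, against 408, 409, 417 and 407 CPM in DMSO replicates 1 to 4. It rose 1.34-fold without overlap (log2 fold change 0.43 ± 0.047, adjusted p = 1.92e-08). DHX33, known to take part in transcription of ribosomal RNA genes, had 47.1, 50.5, 49.2 and 51.6 CPM in PZH replicates 1 to 4, against 86.4, 84.2, 88.1 and 94.2 CPM in DMSO replicates 1 to 4. It fell 1.78-fold (log2 fold change -0.83 ± 0.052, adjusted p = 9.24e-13).

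Among the 10 spliceosome helicases, 3 rose, 5 fell and 2 were not called, beside 39.3% higher and 40.9% lower over all genes tested. DDX39B was counted in this group, and its paralogue DDX39A among the export helicases. Besides DDX46, the fallers included DDX23 (counterpart of yeast Prp28), which hands the upstream splice site to the catalytic snRNA. It had 80.7, 81.5, 84.3 and 88.5 CPM in PZH replicates 1 to 4, against 165, 172, 165 and 167 CPM in DMSO replicates 1 to 4. It fell 1.99-fold (log2 fold change -0.996 ± 0.045, adjusted p = 3.12e-15). DHX15 (Prp43), which takes spent spliceosomes apart, had 198 to 222 CPM in PZH and 346 to 359.6 CPM in DMSO and fell 1.68-fold (log2 fold change -0.75 ± 0.047, adjusted p = 1.04e-12). DHX8 (Prp22), which releases spliced mRNA, and DDX41 of the catalytic spliceosome fell 1.34-fold and 1.23-fold, the DDX41 call being lost once each library's trend on GC content was removed (log2 fold change -0.085, adjusted p = 0.160).

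DHX16 (Prp2) and DHX38 (Prp16), which remodel the spliceosome around its catalytic steps, were higher together with DDX39B. DHX38 had 135, 124, 148 and 137 CPM in PZH replicates 1 to 4, against 100.1, 100.2, 101 and 97.9 CPM in DMSO replicates 1 to 4. It rose 1.36-fold (log2 fold change 0.45 ± 0.050, adjusted p = 3.05e-08). DHX16 was at 101 to 114 CPM in PZH and 87.2 to 94.2 CPM in DMSO and rose 1.20-fold (log2 fold change 0.26 ± 0.049, adjusted p = 3.49e-05), a call that was lost without scaling factors (adjusted p = 0.935).

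DDX42, which associates with the branch point complex, had 258, 252, 249 and 266 CPM in PZH replicates 1 to 4, against 247, 246, 251 and 253 CPM in DMSO replicates 1 to 4, and its groups overlapped (log2 fold change 0.04 ± 0.043, adjusted p = 0.414). It became a lower call in unscaled libraries, where its log2 fold change was -0.22 (adjusted p = 5.05e-05). DHX35 had 20.8, 18.1, 17.6 and 16.6 CPM in PZH replicates 1 to 4, against 22.1, 19.9, 20.2 and 20.4 CPM in DMSO replicates 1 to 4 and was not called (log2 fold change -0.17 ± 0.083, adjusted p = 0.0574). It was called lower without PZH replicate 1, the highest of its group (adjusted p = 0.0167), with upper quartile factors (adjusted p = 0.0096) and without scaling factors (adjusted p = 1.68e-04).

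Export helicases come as close paralogues, and the paralogues moved apart. DDX39A, the close paralogue of DDX39B in export, had 58.7, 54.7, 59.6 and 57.2 CPM in PZH replicates 1 to 4, against 121, 118, 115 and 126 CPM in DMSO replicates 1 to 4. It fell 2.09-fold (log2 fold change -1.06 ± 0.048, adjusted p = 3.08e-15), whereas DDX39B rose. DDX19A and DDX19B (both counterparts of yeast Dbp5) remodel mRNA at the nuclear pore. DDX19A had 16.8, 17.6, 16.0 and 17.7 CPM in PZH replicates 1 to 4, against 21.0, 20.9, 21.6 and 22.6 CPM in DMSO replicates 1 to 4, lower by 1.26-fold (log2 fold change -0.34 ± 0.076, adjusted p = 3.40e-04). DDX19B had 21.4, 23.9, 28.0 and 25.3 CPM in PZH replicates 1 to 4, against 13.4, 11.2, 12.8 and 12.5 CPM in DMSO replicates 1 to 4, higher by 1.98-fold (log2 fold change 0.98 ± 0.091, adjusted p = 1.27e-09).

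Ratios of paralogues within a library do not depend on scaling, and 4 pairs were compared. The ratio of DDX39A to DDX39B counts was 0.588, 0.501, 0.590 and 0.471 in PZH replicates 1 to 4, against 2.37, 2.28, 2.28 and 2.55 in DMSO replicates 1 to 4. It was 4.42-fold lower in PZH, so the more counted gene of the pair was DDX39B in PZH and DDX39A in DMSO. The ratio of DDX19A to DDX19B was 0.787, 0.736, 0.572 and 0.701 in PZH replicates 1 to 4, against 1.57, 1.86, 1.69 and 1.81 in DMSO replicates 1 to 4, 2.49-fold lower in PZH. The ratio of DDX21 to DDX50 was 6.92, 7.78, 7.81 and 7.12 in PZH replicates 1 to 4, against 13.3, 12.5, 12.7 and 12.3 in DMSO replicates 1 to 4, 1.72-fold lower in PZH although both genes rose.

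The ratio of DDX5 to DDX17 moved least of the 4 and was 2.09, 2.17, 2.07 and 2.17 in PZH replicates 1 to 4, against 1.93, 1.98, 1.94 and 2.03 in DMSO replicates 1 to 4. It was 1.08-fold higher in PZH. Groups did not overlap in any of the 4 pairs, and each gave an exact two-sided permutation p of 0.0286, the smallest that 70 assignments allow, and a Benjamini-Hochberg adjusted p of 0.0286 over the 4 pairs. For DDX5 and DDX17 the adjusted p was 0.0571 in the exact permutation test without PZH replicate 2 and the same without PZH replicate 4. Ratios with DDX19A, DDX19B or DDX39B carry the uncertainty of their shared exons, and DDX19A also shares 24.0% of its 50-base transcript windows with DDX19B.

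**Figure D4:**
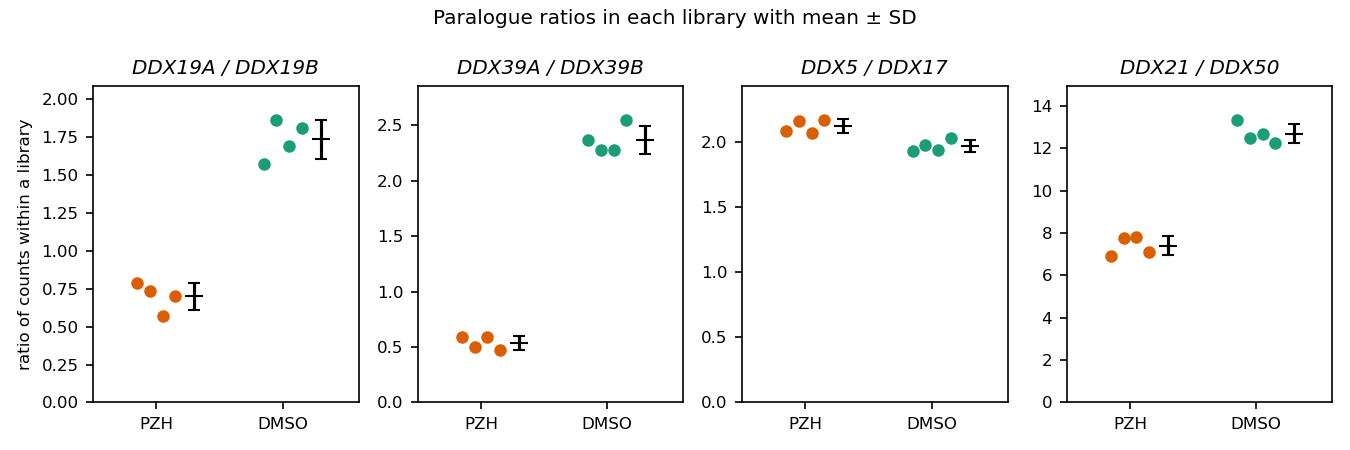
Ratio of counts of 4 paralogue pairs within each library, with PZH left of DMSO, points for replicates 1 to 4 and the mean ± SD beside them; each axis starts at 0. The ratio of DDX39A to DDX39B averaged 0.537 in PZH and 2.37 in DMSO, while that of DDX5 to DDX17 averaged 2.12 in PZH and 1.97 in DMSO.

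Of the 4 helicases of cytoplasmic mRNA, 3 rose and DHX29 fell. Over all genes tested 39.3% were called higher and 40.9% lower, and the difference was not tested. DHX36, which resolves G-quadruplexes in RNA and DNA, had 85.5, 82.0, 94.1 and 96.2 CPM in PZH replicates 1 to 4, against 53.2, 50.1, 56.9 and 58.8 CPM in DMSO replicates 1 to 4. It rose 1.63-fold (log2 fold change 0.71 ± 0.060, adjusted p = 2.53e-10). DHX34, a factor of nonsense-mediated decay, had 46.4, 41.2, 48.5 and 50.2 CPM in PZH replicates 1 to 4, against 33.0, 31.6, 36.3 and 34.6 CPM in DMSO replicates 1 to 4, and it rose 1.37-fold (log2 fold change 0.46 ± 0.066, adjusted p = 1.43e-06). DDX6, which represses translation and promotes decapping in P-bodies, had 403 to 409 CPM in PZH and 334 to 346 CPM in DMSO and rose 1.20-fold (log2 fold change 0.26 ± 0.043, adjusted p = 1.06e-05), a call that did not hold without scaling factors (adjusted p = 0.993).

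DHX29 helps ribosomes scan through structured leaders of mRNA. It had 42.1, 39.8, 41.3 and 42.6 CPM in PZH replicates 1 to 4, against 60.1, 62.6, 64.7 and 62.4 CPM in DMSO replicates 1 to 4. It fell 1.51-fold without overlap (log2 fold change -0.59 ± 0.052, adjusted p = 4.66e-10). DDX3X, a translation helicase outside the naming pattern, stood at 429 to 459 CPM in PZH and 527 to 548 CPM in DMSO and fell 1.20-fold (log2 fold change -0.27 ± 0.046, adjusted p = 1.47e-05).

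DDX5 and DDX17, paralogues that work with transcription factors and with the microRNA processor Drosha, were both higher. DDX5 had 912, 867, 928 and 972 CPM in PZH replicates 1 to 4, against 714, 689.9, 709 and 702 CPM in DMSO replicates 1 to 4. It rose 1.31-fold (log2 fold change 0.39 ± 0.049, adjusted p = 1.96e-07). DDX17 had 437, 401, 448 and 448 CPM in PZH replicates 1 to 4, against 370.1, 348, 366 and 346 CPM in DMSO replicates 1 to 4. It rose 1.21-fold (log2 fold change 0.28 ± 0.049, adjusted p = 2.27e-05), a call that unscaled libraries did not give (adjusted p = 0.732).

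DDX1, part of the complex that ligates spliced tRNAs, had 229.8, 217, 226 and 224 CPM in PZH replicates 1 to 4, against 237, 239, 247 and 237 CPM in DMSO replicates 1 to 4. The step was small (log2 fold change -0.10 ± 0.043, adjusted p = 0.0419) and the call was lost on leaving out any library in turn (adjusted p = 0.0506 to 0.101). DDX20 (Gemin3), of the SMN complex that assembles snRNPs, had 41.7, 41.9, 41.4 and 44.3 CPM in PZH replicates 1 to 4, against 39.9, 39.0, 40.5 and 41.0 CPM in DMSO replicates 1 to 4. Its PZH values all exceeded the DMSO values, but it was not called (log2 fold change 0.08 ± 0.055, adjusted p = 0.183), and in unscaled libraries it was a lower call, where its log2 fold change was -0.18 (adjusted p = 0.00589). Of its listed partners in the complex, GEMIN2 rose 1.21-fold (log2 fold change 0.28 ± 0.084, adjusted p = 0.00482), while GEMIN4 and GEMIN5 fell 3.07-fold and 2.02-fold (GEMIN4: log2 fold change -1.62 ± 0.054, adjusted p = 1.09e-17; GEMIN5: log2 fold change -1.02 ± 0.048, adjusted p = 7.02e-15).

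Both family members grouped as mitochondrial were called lower, beside 40.9% of all genes tested. SUPV3L1, an RNA helicase of mitochondria outside the naming pattern, rose 1.33-fold (log2 fold change 0.41 ± 0.054, adjusted p = 3.31e-07). DDX28, which takes part in assembly of the large mitochondrial ribosomal subunit, had 8.65, 6.14, 7.24 and 6.71 CPM in PZH replicates 1 to 4, against 13.9, 13.4, 12.9 and 14.2 CPM in DMSO replicates 1 to 4. It fell 1.89-fold (log2 fold change -0.92 ± 0.11, adjusted p = 9.97e-08), and 22.5% of its exon bases are overlapped by DUS2 on the opposite strand. DHX30, of the mitochondrial RNA granule, had 124, 126, 132 and 139 CPM in PZH replicates 1 to 4, against 136, 145, 142 and 144 CPM in DMSO replicates 1 to 4, and the groups overlapped (log2 fold change -0.12 ± 0.047, adjusted p = 0.0218). That call was lost without PZH replicate 1 (adjusted p = 0.132), PZH replicate 2 (0.0598), DMSO replicate 2 (0.0561) or DMSO replicate 4 (0.0500066). The DHX30 call was also lost with RLE factors (adjusted p = 0.0781), and the direction turned once the GC trend was removed (log2 fold change 0.11, adjusted p = 0.0471).

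Of 4 members with less settled roles, DDX59 rose and DHX40 fell. DDX59 had 26.5, 25.4, 25.5 and 22.9 CPM in PZH replicates 1 to 4, against 13.4, 15.8, 15.1 and 13.6 CPM in DMSO replicates 1 to 4, higher by 1.73-fold (log2 fold change 0.79 ± 0.082, adjusted p = 7.26e-09). DHX40 was at 92.5 to 102 CPM in PZH and 130.2 to 146 CPM in DMSO, lower by 1.43-fold (log2 fold change -0.52 ± 0.048, adjusted p = 1.22e-09). Its transcript shares 24.5% of 50-base windows with the pseudogene DHX40P1, so its counts are uncertain.

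DHX32 had 65.4, 61.1, 56.3 and 52.8 CPM in PZH replicates 1 to 4, against 55.6, 63.1, 64.5 and 60.0 CPM in DMSO replicates 1 to 4, and its groups overlapped (log2 fold change -0.05 ± 0.064, adjusted p = 0.521). DHX57 had 47.7, 44.8, 48.7 and 45.6 CPM in PZH replicates 1 to 4, against 42.8, 45.3, 44.4 and 41.8 CPM in DMSO replicates 1 to 4, not called either (log2 fold change 0.10 ± 0.055, adjusted p = 0.10). In unscaled libraries both were called lower, DHX32 at -0.30 (adjusted p = 4.66e-04) and DHX57 at -0.16 (adjusted p = 0.018). DHX32 was also called lower with the GC trend removed (adjusted p = 0.0433). DHX57 was called higher without PZH replicate 2 (adjusted p = 0.0483) and with RLE factors (adjusted p = 0.0436).

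The remaining 3 members are known from the germ line and were near the limit of detection, so they were not tested. DDX25 had 2 counts over the 4 PZH libraries and 24 over the 4 DMSO libraries, DDX4 had 4 and 1, and DDX43 had 1 and 1. The limit that a count of 0 allows, 3 counts, is 0.159 to 0.165 CPM for PZH libraries and 0.151 to 0.156 CPM for DMSO libraries before TMM scaling, and covers counting error only.

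Levels can be set side by side between genes only per length, here as scaled CPM per kilobase of exon in GENCODE 29. Only the 46 tested members were ranked. In PZH the order from the top was DDX5 (314 to 352 over the 4 libraries), DDX21 (105 to 114), DDX17 (83.6 to 93.5), DDX1 (75.6 to 80.2) and DHX15 (66.2 to 74.1). Of these neighbours none overlapped in range. In DMSO the order was DDX5 (249.5 to 258), DHX9 (133 to 139), DHX15 (115 to 120.1), DDX1 (82.5 to 86.1) and DDX21 (81.2 to 83.0), the last pair overlapping. DHX9 thus stood at rank 21 of 46 in PZH, at 24.2 CPM per kilobase, and at rank 2 in DMSO, at 136.

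Of 40 listed partner proteins that bind or activate these helicases, 14 were called higher and 20 lower, beside 39.3% and 40.9% of all genes tested. Their median log2 fold change was -0.17, beside -0.02 over all genes, and the difference was not tested. DGCR8, the RNA-binding partner of Drosha, had 9.97 to 16.3 CPM in PZH and 49.4 to 56.3 CPM in DMSO and fell 4.09-fold (log2 fold change -2.03 ± 0.095, adjusted p = 4.62e-15), and DCP1A, a decapping factor that meets DDX6 in P-bodies, had 131 to 144 CPM in PZH and 71.4 to 74.6 CPM in DMSO and rose 1.93-fold (log2 fold change 0.95 ± 0.046, adjusted p = 1.11e-14). In unscaled libraries 9 partners were higher and 27 lower, beside 4473 and 7670 of the 15006 genes tested.

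Of 17 other RNA helicases tested, outside the DDX and DHX names, 9 were higher (52.9%) and 7 lower (41.2%), beside 39.3% and 40.9% of all genes tested. The counts were 7 and 8 in unscaled libraries, beside 4473 and 7670 of the 15006 genes tested. Their median log2 fold change with TMM factors was 0.25, beside -0.02 over all genes. The list holds EIF4A1, EIF4A2, EIF4A3 and YTHDC2, DEAD or DEAH box proteins that the naming pattern left out. EIF4A2 had 454 to 520 CPM in PZH and 346 to 365 CPM in DMSO and rose 1.39-fold (log2 fold change 0.48 ± 0.050, adjusted p = 1.18e-08). EIF4A3, the helicase of the exon junction complex, had 118 to 124 CPM in PZH and 251 to 265 CPM in DMSO and fell 2.12-fold (log2 fold change -1.08 ± 0.043, adjusted p = 2.80e-16). HELZ2 and SKIV2L rose 2.69-fold and 2.02-fold. The translation helicase EIF4A1 showed only 4.25 to 4.36 CPM in PZH and 1.64 to 2.62 CPM in DMSO. All of its exon bases are shared with another same-strand transcript in GENCODE 29, and its values are uncertain like those of DDX47.

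Spread within a group was small for most members, with a median coefficient of variation of 5.05% over PZH and 3.45% over DMSO libraries. PZH replicates 3 and 4 lay above both replicates 1 and 2 for 13 of 46 helicases (28.3%) and below both for 5 (10.9%), beside 17.7% and 17.6% of all genes tested. With PZH replicates 3 and 4 only, 16 helicases were called higher and 23 lower, beside 6036 and 6185 over all genes. With replicates 1 and 2 only, the counts were 15 and 22, beside 5792 and 5962 over all genes. Median transcript GC content was 45.2% in members called higher and 50.6% in those called lower, beside 47.1% and 50.7% over all genes called. Its part in the fold changes was not tested beyond the fit with the GC trend removed. There 16 members were higher and 24 lower, beside 6137 and 5927 over all genes.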

How the data were processed

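RNA-seq libraries were made from poly(A) RNA of HCT116 cells. The authors deposited unnormalized whole-number counts for 35394 gene symbols in 8 libraries. The submitters' processing notes name HISAT2 2.1.0, StringTie 1.3.3b, FastQC 0.11.5 and DESeq 1.28.0 without roles; the sources used here do not give genome build, annotation or strand setting. Names of 25 genes read as dates, and these rows stayed in library sizes and tests. Depth is 18144117 to 19917571 counts per library. Genes were kept by filterByExpr (minimum count 10, minimum total 15), scaled with TMM, and compared by edgeR's quasi-likelihood F test with group as the only term, two-sided. Standard errors were derived as |log2 fold change| over the root of F. Levels are TMM-scaled CPM. Paralogue ratios (0.5 added to each count) were compared by exact permutation. Replicates differed by more than counting noise in every pair (reduced chi-square 4.03 to 12.3 among PZH and 2.39 to 2.81 among DMSO pairs). Fits were also run on simulated data in which few genes changed. That setting cannot check TMM scaling where most genes are called, as here. Exon overlaps and GC content come from GENCODE 29, promoters from RefSeq. Members and lists were chosen with earlier results of these data known. Values by library are given for the 2 members with the smallest p in each direction of each role group, members not called, the 5 largest changes each way and the paralogue pairs; a few others were added to them after their values were seen. Software was edgeR 4.0.16, DESeq2 1.42.0 and limma 3.58.1 under R 4.3.3, with Python 3.11.15 for annotation.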

Additional observations from a re-analysis of the deposited data

Results flagged for a closer look

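In 102 groups of 4 libraries examined (each tested helicase, the paralogue ratios and the family's share of counts), 2 values stood apart from the other 3 by more than Dixon's limit for groups of 4; chance flags about 1 in 20 such groups. DDX10 stood at 74.4 CPM in DMSO replicate 2, below the other DMSO libraries at 78.4 to 79.1 CPM. DDX41 stood at 93.7 CPM in DMSO replicate 4, above the others at 83.4 to 85.2 CPM. Both genes were called lower in PZH on leaving out any single library.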

How the results depend on the processing

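Of 46 tested helicases, 30 kept their direction and their side of the threshold in all 22 alternatives run for them. Without scaling factors 10 helicases were higher and 31 lower, and over all genes 4473 were higher and 7670 lower against 5901 and 6143 with TMM factors. DDX20, DDX42, DDX49 and DHX57 then changed sign, to log2 fold changes of -0.18, -0.22, -0.031 and -0.16. With the GC trend removed, an alternative chosen after seeing the data, DHX30 changed sign, to 0.11. The helicase median log2 fold change, -0.12, was -0.19 with upper quartile factors, -0.38 without factors, -0.15 with the GC trend removed and -0.15 without the 4 members that share exons on the same strand (chosen after seeing the data). On leaving out each library it ran from -0.133 to -0.0914, with 14 to 16 helicases higher and 22 to 24 lower. Over all genes 5835 to 5991 were then higher and 6026 to 6217 lower. The causes of these shifts were not tested.

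Samples with the same replicate number deviated together only weakly (correlations of deviations 0.016 to 0.071), although every library correlated best with its own number; the numbers were not taken to pair samples. With the replicate number as a block, 15 helicases were higher and 24 lower, 5889 genes were higher and 6125 lower, and no helicase call changed. In the blocked exact test of paralogue ratios the smallest p is 0.125, and all 4 pairs reached it (log2 ratio differences -1.32 for DDX19A/DDX19B, -2.15 for DDX39A/DDX39B, 0.11 for DDX5/DDX17 and -0.78 for DDX21/DDX50). On leaving out each library the DDX5/DDX17 difference ran from 0.10 to 0.12. With DESeq2, 15 helicases were higher and 22 lower, beside 5962 and 5904 over all genes. With limma-voom the counts were 15 and 24, beside 5913 and 6180 over all genes. With an adjusted p of 0.01 they were 14 and 21, beside 5465 and 5661 over all genes. Depth limits DDX25, DDX4 and DDX43, which were too low to test, and DDX47, with few counts.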
